A study of Mus musculus with 3 samples.

Results

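Cytotoxic granule genes were examined in mouse CD4 T cells by RNA-seq. The set held 10 of the 50600 annotated genes and was chosen by function: the pore protein gene Prf1, the granzymes Gzma, Gzmb, Gzmk and Gzmm, the granule proteins Ctsw and Nkg7, the proteoglycan core Srgn, the granule membrane protein Lamp1 and the granzyme inhibitor Serpinb9. The series held 1 group of 3 libraries (replicates 1, 2 and 3) of primary C57BL/6NJ cells labelled T-helper 1, with separate biosamples and a shared donor identifier, and sex was not recorded and age was unknown. The labels link a CD4 T cell differentiation protocol, and the header of each table carries a time of 0 hours. The titles describe RNA-seq of total RNA, while the linked library protocol is named for polyadenylated RNA, so which RNA was captured cannot be told from the labels. No agent, dose or genetic change is named in the labels, and no second group was analysed here, so comparisons were made between genes and between libraries.

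Killer lymphocytes store perforin and granzymes in secretory lysosomes. On contact with a target the granules fuse with the plasma membrane, perforin opens the target membrane, and granzymes enter and cleave proteins there, which starts cell death. Granzymes are serine proteases bound to serglycin inside the granule, and the killer cell guards its own cytosol with an intracellular serpin. The program is best known from CD8 T cells and natural killer cells, and some effector CD4 T cells also use it.

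Depth was 3647366, 4305077 and 2510319 counts in the 3 libraries, of which the 10 genes together received 760, 1261 and 212. Fragments were counted by strand, and several measurements bear on what a count means. Genes whose exons overlap exons of the other strand held 63.1%, 53.8% and 76.5% of all counts. The median level was 7.38 TPM (transcript abundance scaled to exon length and depth) over 4801 protein-coding genes with such overlap and 0.123 TPM over 16963 without it. mt-Nd6, the protein gene on the light strand of mitochondrial DNA, had 6.67, 4.12 and 27.5 times the counts per base of mt-Co1 on the heavy strand, whose transcripts are among the most abundant of most cells. Gm11175, which lies opposite the transcription factor gene Jund, had 32.4, 23.0 and 35.1 times the counts per base of Jund. These loci were chosen after their values were seen. Actb, an abundant transcript with no gene of the other strand within 5 kb, had 5214, 8259 and 2020 counts (mean 1037 TPM), and Gapdh, with exon overlap, had 515, 737 and 197. Whether the counted strand was the strand of the transcripts was not tested on reads. All levels below are levels on the counted strand: they do not bound a transcript's abundance, and a gene with few counts here is not shown to be little expressed. TPM values were computed from the counts and exon lengths, and intervals and floors cover counting error only. The p-values of variation between libraries set counts against counting error, given the library sizes, and depend on the scaling. In bulk RNA, fewer cells of a type and less RNA per cell cannot be told apart.

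The 4 granzymes share the protease core, shown here because their counts are compared below. The 36 coding bases around the catalytic serine of each are printed from the GENCODE M21 transcripts, with the 6 codons from the glycine-aspartate-serine motif in capitals.
Gzma: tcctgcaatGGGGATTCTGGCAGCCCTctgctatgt
Gzmb: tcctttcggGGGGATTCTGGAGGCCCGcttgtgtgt
Gzmk: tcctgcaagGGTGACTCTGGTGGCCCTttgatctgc
Gzmm: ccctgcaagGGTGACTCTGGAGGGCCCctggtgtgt
They start at coding bases 616, 592, 622 and 613 in the order listed. Over whole coding sequences, identity among the 4 ranged from 57.0% (Gzma and Gzmm) to 63.5% (Gzma and Gzmk). No 50-base window of any of the 4 transcripts occurred in a transcript of another gene, so fragments of 1 granzyme were distinguishable from those of the others by sequence.

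Promoter sequences are shown for Lamp1, Prf1, Srgn and Gzmb, which span the range of counts in the set. Each is the 250 bases upstream of an annotated start, from RefSeq (GRCm38.p6), which matched 9 of the 10 genes. Capitals mark matches on either strand to 5 short motifs that were searched in every window. The E-box, which is bound by helix-loop-helix factors, was searched as CACGTG. The core of the cyclic AMP response element, bound by Creb family factors, was searched as TGACGT. The site of Runx factors, which act in killer T cells, was searched as ACCACA. The core of the site for Ets family factors was searched as AGGAAG. The box bound by the TATA-binding protein near many start sites was searched as TATAAA. Lamp1 lies at chr8:13158911-13159160 on the plus strand, Prf1 at chr10:61297586-61297835 on the plus strand, Srgn at chr10:62527446-62527695 on the minus strand and Gzmb at chr14:56262335-56262584 on the minus strand.
Lamp1: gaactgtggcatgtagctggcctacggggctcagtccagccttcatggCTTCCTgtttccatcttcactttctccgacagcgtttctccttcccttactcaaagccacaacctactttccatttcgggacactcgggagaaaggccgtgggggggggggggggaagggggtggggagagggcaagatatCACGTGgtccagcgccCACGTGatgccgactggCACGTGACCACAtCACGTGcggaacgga
Prf1: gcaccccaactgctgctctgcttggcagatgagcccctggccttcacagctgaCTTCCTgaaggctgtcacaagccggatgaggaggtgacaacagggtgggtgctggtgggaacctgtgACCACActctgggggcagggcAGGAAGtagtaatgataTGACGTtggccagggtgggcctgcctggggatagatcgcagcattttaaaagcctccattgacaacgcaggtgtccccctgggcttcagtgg
Srgn: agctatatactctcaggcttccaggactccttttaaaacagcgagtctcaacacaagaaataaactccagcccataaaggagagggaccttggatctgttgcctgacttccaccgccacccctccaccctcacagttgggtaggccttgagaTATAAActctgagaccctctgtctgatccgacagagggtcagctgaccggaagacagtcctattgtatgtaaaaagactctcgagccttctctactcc
Gzmb: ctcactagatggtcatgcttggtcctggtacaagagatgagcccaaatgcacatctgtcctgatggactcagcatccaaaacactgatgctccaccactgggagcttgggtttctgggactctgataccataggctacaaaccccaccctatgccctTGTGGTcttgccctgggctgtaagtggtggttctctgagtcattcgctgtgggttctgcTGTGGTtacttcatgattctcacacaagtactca
The Lamp1 window held 4 E-boxes, at 61 to 56, 45 to 40, 28 to 23 and 15 to 10 bases before the start. At least 1 E-box occurred in 6.02% of 32851 windows of this length, and at least 4 in 7 windows, those of Gm40008, Mfsd1, Cdk4, Nxf2 and Lamp1. The Prf1 window held TGACGT (in 6.47% of windows), ACCACA (14.0%) and AGGAAG (29.5%), the last on both strands. Each share is of windows with at least 1 match on either strand. How many windows held the last motif on both strands was not computed. Srgn had a TATAAA (12.4%) at 98 to 93 bases before its start, and Gzmb had ACCACA on the reverse strand at 93 to 88 and 34 to 29. The window of a second Srgn start (chr10:62507758-62508007), not printed, held TGACGT at 72 to 67, ACCACA at 202 to 197 and no TATAAA. A match describes letters in a window and no binding was measured.

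Prf1 encodes perforin, the pore-forming protein. The gene (ENSMUSG00000037202.6, chromosome 10, 61297833 to 61304680, plus strand, mm10) had 56, 99 and 20 counts, or 11.5, 19.6 and 5.18 TPM (12.1 ± 7.20, SD, n = 3). It was highest in replicate 2 and lowest in replicate 3, and ranked 4915 of 21764 protein-coding genes by mean TPM. Its nearest gene on the other strand, Pald1, lay 14976 bases away and had 0 counts.

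The granzymes received few counts. Gzma (chromosome 13, 113093825 to 113100979, minus strand), a tryptase, had 0, 2 and 0 counts, where 3 counts correspond to 1.82, 1.74 and 2.29 TPM. Gzmb (chromosome 14, 56258856 to 56262260, minus strand), which cleaves after aspartate and activates caspases, had 2, 0 and 0 counts, with floors of 1.12, 1.08 and 1.42 TPM. Both were thus at or under the floor in every library. Gzmk (chromosome 13, 113171608 to 113225908, minus strand), another tryptase, had 0 counts in all 3 libraries, which allows up to 1.15, 1.10 and 1.45 TPM on the counted strand. Gzmm (chromosome 10, 79689020 to 79695261, plus strand), which cleaves after methionine or leucine, had 0, 8 and 0 counts, or 2.77 TPM in replicate 2. Its 8 counts fell in 1 library. Among 6 other mouse granzymes 5 had no count, Gzmd, Gzme and Gzmf among them, and Gzmc had 1, 11 and 0.

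Of the other granule proteins, Ctsw was high and Nkg7 was not. Ctsw (chromosome 19, 5465240 to 5468498, minus strand), a papain-like cysteine protease of killer lymphocytes, had 195, 289 and 80 counts, or 84.1, 119.7 and 43.5 TPM (82.4 ± 38.2, SD, n = 3). By TPM it had the highest mean of the 10 genes and ranked 830 of the protein-coding genes, whereas by CPM, which is not scaled to length, Lamp1 was above it. The nearest gene opposite it, Fibp, lay 188 bases away with 70, 113 and 29 counts, an order in which library depth also ran. Nkg7 (chromosome 7, 43437073 to 43438249, plus strand), a granule membrane protein that takes part in degranulation, had 1, 0 and 0 counts.

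Srgn (chromosome 10, 62493833 to 62527451, minus strand), the core of the proteoglycan that packs granzymes, had 202, 302 and 35 counts. Its levels were 48.9, 70.2 and 10.7 TPM (43.2 ± 30.2, SD, n = 3), with replicate 3 far below the others. Lamp1 (chromosome 8, 13159161 to 13175338, plus strand), the lysosomal membrane glycoprotein whose appearance on the surface marks degranulation, had 287, 518 and 75 counts, or 57.0, 98.8 and 18.8 TPM (58.2 ± 40.0, SD, n = 3). Serpinb9 (chromosome 13, 33003250 to 33017957, plus strand), the inhibitor of granzyme B, had 17, 43 and 2 counts, or 2.58, 6.28 and 0.383 TPM (3.08 ± 2.98, SD, n = 3). All 3 genes were highest in replicate 2 and lowest in replicate 3. Serpinb9 shares 86.5% of its coding bases with Serpinb9b, and 13 of its 3423 windows of 50 bases occurred there. Serpinb9b had 0 counts, so a split of fragments between the copies was not seen, although fragments that map to both would be missing from each.

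**Figure D1:**
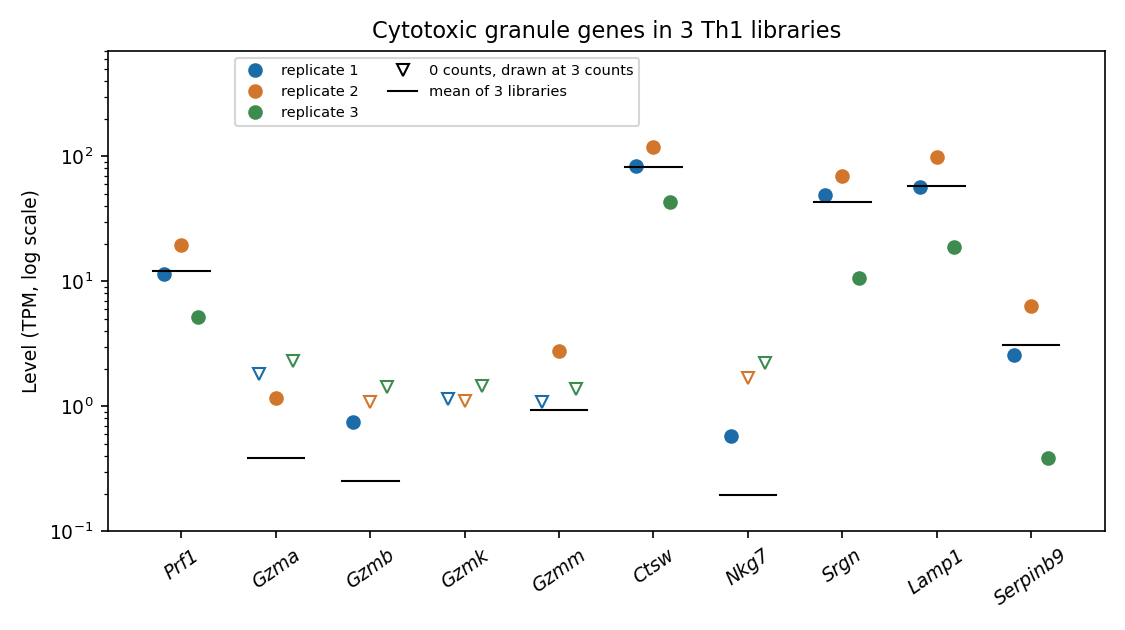
Level of each granule gene (TPM, log axis) in the 3 libraries, with points for libraries, bars for their mean and open triangles at the level of 3 counts where a gene had 0. Prf1, Ctsw, Srgn and Lamp1 lie above 1 TPM in every library, and Gzma, Gzmb, Gzmk and Nkg7 are at or under the level of 3 counts.

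In all, 4 of 10 genes (Prf1, Ctsw, Srgn and Lamp1) reached 1 TPM in every library, where 41.6% of protein-coding genes did. At the other end, 4 of 10 (Gzma, Gzmb, Gzmk and Nkg7) had at most 3 counts over all libraries, where 45.5% of protein-coding genes did. Both shares are near the background, so neither is a result about the set. Gzmm and Serpinb9 lay between these groups.

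Within each library the order of levels was Ctsw, Lamp1, Srgn, Prf1 and Serpinb9 from high to low. Over 15 pairs of genes, an exact two-sided sign-flip test over 3 libraries cannot go below p = 0.25, which is also the adjusted value, so pairs are described by their ratio. Lamp1 had 0.719 times the summed counts per base of Ctsw (95% Clopper-Pearson interval 0.646 to 0.800) and was lower in 3 of 3 libraries. Lamp1 exceeded Srgn by 1.34 times (1.20 to 1.49), the closest neighbours among these 5 genes, and Srgn exceeded Prf1 by 3.62 times (3.05 to 4.32). Serpinb9, the lowest of the 5, lay further down, with Prf1 at 3.82 times Serpinb9 (2.84 to 5.18). These intervals pool the libraries and do not cover the spread between them. In replicates 1, 2 and 3 the log2 ratio of TPM + 0.1 was 2.08, 1.84 and 1.03 for Srgn to Prf1. For Prf1 to Serpinb9 it was 2.11, 1.62 and 3.45. For Lamp1 it was -0.56, -0.28 and -1.21 to Ctsw, and 0.22, 0.49 and 0.81 to Srgn. The mean ± SD ranges of Ctsw, Lamp1 and Srgn in TPM overlapped, whereas their order held within each library.

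Prf1 was also paired with the granule genes of fewest counts, so the direction of these ratios was set by that choice. They are a description only. Prf1 counts per base were 12.5 times those of Gzmm (6.19 to 29.3) and 29.7 times those of Gzma (8.11 to 247.4). They were 48.0 times those of Gzmb (13.1 to 399.6), which had 2 counts in all. With Gzmk set to 3 counts in each library, they were at least 10.4-fold higher than those of Gzmk. The ratio to Nkg7 was 61.9 (10.97 to 2459), where the width reflects a single count.

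Between libraries, counts scaled to depth (CPM, scaled by the trimmed mean of M-values) were set against counting error with a chi-square test of Poisson counts, Benjamini-Hochberg adjusted over 10662 genes. Among the 4 granule genes that passed the filter on low counts, 2 varied beyond counting error, where 62.4% of all tested genes did. Srgn had 53.0, 56.0 and 18.9 CPM, a log2 difference of -1.56 between replicates 3 and 2 (adjusted p = 5.39e-09 by this chi-square test over all genes). Without replicate 3 its adjusted p was 0.724 by the same test, so its call rests on that library. Lamp1 had 75.2, 96.0 and 40.6 CPM (log2 difference -1.24, adjusted p = 6.7e-12, and 0.00548 without replicate 3, by the same chi-square test over all genes). Prf1 at 14.7, 18.4 and 10.8 CPM and Ctsw at 51.1, 53.6 and 43.3 CPM did not pass (adjusted p = 0.0989 and 0.298 by the same chi-square test over all genes). With raw library totals in place of scaled sizes, Prf1 and Ctsw also passed (adjusted p = 2.57e-05 and 2.02e-08 by that test). Under that setting 8801 of 10662 tested genes passed.

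With this scaling both called genes were highest in replicate 2 and lowest in replicate 3. Such calls made up 22.3% of all tested genes and 29.3% of tested genes without exon overlap. The share of counts in genes with exon overlap ran the other way, lowest in replicate 2 and highest in replicate 3. Over all tested genes the median log2 difference between replicates 3 and 2 was -0.46 for 2600 genes that had none on the opposite strand within 5 kb and 1.02 for 4418 genes with exon overlap. The part of this shift in the values of Srgn and Lamp1 was not tested. When the scaling used only genes without exon overlap, an alternative chosen after the data were seen, the differences were -1.24 for Srgn and -0.92 for Lamp1 (adjusted p = 6.88e-06 and 1.79e-06 by the chi-square test over all genes). Prf1 differed by -0.44 (adjusted p = 0.47 by that test), and Ctsw, at 147.7, 144.1 and 145.7 CPM, by 0.016 (adjusted p = 0.972 by that test). Srgn was then highest in replicate 1, at 153.05 CPM against 150.6 in replicate 2.

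**Figure D2:**
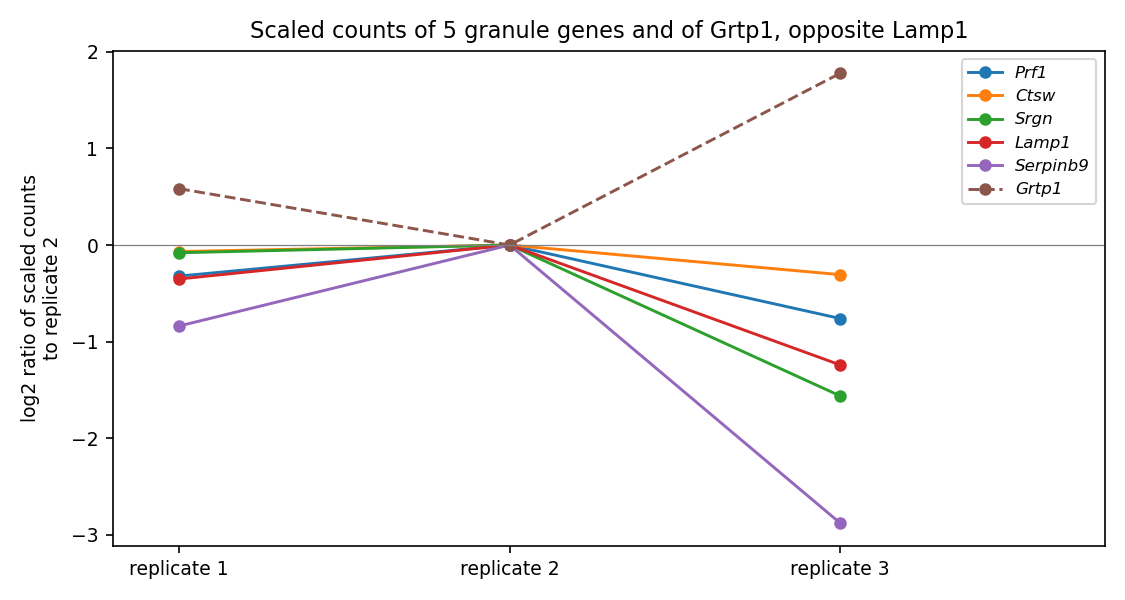
Scaled counts of 5 granule genes and of Grtp1 as log2 ratio to replicate 2, 1 line per gene over the 3 libraries. The granule genes are lowest in replicate 3, from -0.31 for Ctsw to -2.88 for Serpinb9, and Grtp1 is highest there at 1.78. With scaling over genes without exon overlap the values are 0.016 for Ctsw and -2.56 for Serpinb9. The Serpinb9 value rests on 2 counts in replicate 3, and the gene did not pass the filter on low counts.

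Lamp1 is the granule gene whose exons overlap a gene of the other strand. It shares 249 bases, 9.31% of its exonic length, with Grtp1 on the minus strand (13172022 to 13200620), a gene for a putative regulator of Rab proteins. Grtp1 had 1602, 1512 and 1776 counts, or 420, 280.3 and 962 CPM, and exceeded Lamp1 in counts by 5.58, 2.92 and 23.7 times. Its level was 229 ± 54.1 TPM (SD, n = 3). By CPM, Lamp1 was lowest and Grtp1 highest in replicate 3, while the raw counts of Grtp1 changed little. Of 4418 tested genes with exon overlap, 1357 were lower in replicate 3 than in replicate 2, and the median log2 difference was 1.02. How many overlapping pairs of genes diverge in this way was not computed. The other 9 granule genes share no exonic base with a gene of the other strand. Among all 21764 protein-coding genes 4801 have such overlap.

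**Figure D3:**
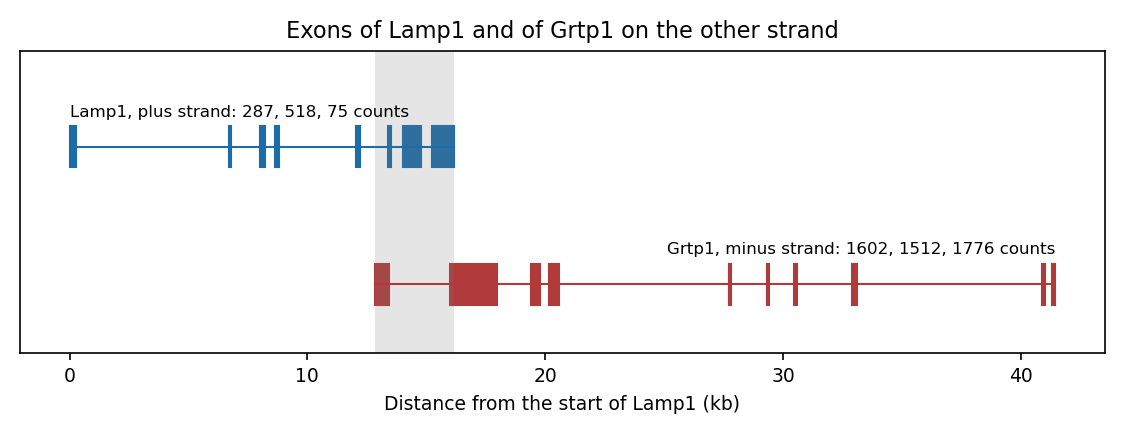
Exons of Lamp1 and Grtp1 by distance from the start of Lamp1 (kb), with the region both genes span in grey and the counts in replicates 1, 2 and 3 beside each name. Grtp1, on the minus strand, had more counts than Lamp1 in each library.

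Most genes that serve the same granule steps had more counts than the granzymes. Of all protein-coding genes 41.6% reached 1 TPM in every library, and a tally near that share is not a result about its list. Of 13 matched exocytosis genes 11 reached 1 TPM in every library (median 21.9 TPM), with Unc13d, which primes granules for fusion, at 37.6 ± 19.5 TPM and Rab27a, which docks them, at 23.7 ± 8.57 TPM (SD, n = 3). Rab7, at 62.7 ± 28.6 TPM, and Kif5b have exon overlap with the other strand. Stx11, a fusion protein of killer cells, had 3, 2 and 0 counts, and Syt7 had 0. Among 9 cathepsins and related genes 8 reached 1 TPM (median 16.1 TPM), led by Ctss at 117 ± 67.5 TPM. Ctsc, the peptidase that activates granzymes, was at 10.6 ± 6.52 TPM (SD, n = 3). Ctsd, a lysosomal aspartate protease, was at 44.4 ± 27.0 TPM and Ctsh had 0 counts. Of 13 lysosome and sorting genes 11 reached 1 TPM in every library, with Gnptg, which has exon overlap, at 80.4 ± 3.35 TPM, and Cd63 had 0 counts. Of 10 genes that build the serglycin sugar chains 6 reached it, led by Xylt2 (27.4 ± 8.09 TPM), which starts the chains, and B3gat3 (23.3 ± 10.7 TPM), which completes their linker. Of 6 death ligand and target genes 4 did. Casp8, the initiator caspase of death receptors, was at 92.8 ± 47.9 TPM, Bid, a granzyme B substrate, at 44.2 ± 8.80 TPM with exon overlap, and Fasl had 14, 33 and 1 counts. Of 10 other intracellular serpins 2 did, Serpinb6a (32.3 ± 2.88 TPM, with exon overlap) and Serpinb6b, and 7 had no count.

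Lists of regulators and of cell type markers are set against the 41.6% of protein-coding genes that reached 1 TPM in every library. A tally near that share is not a result about its list. Of 11 transcription factor genes of cytotoxic cells 6 reached 1 TPM in every library (median 1.81 TPM). Id2 was at 23.9 ± 17.1 TPM and Runx3, a Runx factor of killer T cells, at 15.9 ± 5.42 TPM (SD, n = 3). Tbx21, which encodes T-bet, had 1, 3 and 0 counts, Eomes, with exon overlap, had 4, 12 and 14, and Zeb2 had 0. Of 12 natural killer and innate receptor genes 6 reached 1 TPM, led by Cd226 (19.3 ± 10.96 TPM) and Tyrobp (12.5 ± 5.12 TPM), with summed levels of 45.1, 54.6 and 30.1 TPM. Klrd1 (4.81 ± 3.38 TPM), Klrk1 (1.98 ± 0.533 TPM), Crtam and Fcgr3 were the others. Of the remaining 6, Klrb1c, Klrc1, Klre1, Klrg1 and Fcer1g had 0 counts and Ncr1 had 1, 0 and 0. Cd8a had 0, 1 and 0 counts, and Cd8b1 was at 11.9 ± 5.61 TPM. Mast cell and myeloid genes reached 1 TPM in 2 of 9 cases, Csf1r (with exon overlap) and Cpa3, with summed levels of 113.8, 89.3 and 168.5 TPM, and Mcpt4, Mcpt8 and Cma1 at 0. B cell genes reached it in 2 of 6 (Ighm and Cd79a), with summed levels of 270.7, 400.5 and 123.1 TPM and Ms4a1 and Igkc at 0. The part of these other cell types in the granule gene values was not tested. For the labelled cell type, 9 of 9 CD4 T cell identity genes (median 236 TPM, Trac and Trbc2 highest) and 7 of 7 naive T cell genes (median 199.9 TPM) reached 1 TPM in every library. Of 8 Th1 genes 3 did (median 0.404 TPM), a share near the 41.6% of protein-coding genes, with Il18r1 at 28.4 ± 18.7 TPM and Stat4 at 14.8 ± 7.15 TPM (SD, n = 3). Ifng had 1, 3 and 0 counts and Cxcr3 and Hlx had 0 on the counted strand.

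**Figure D4:**
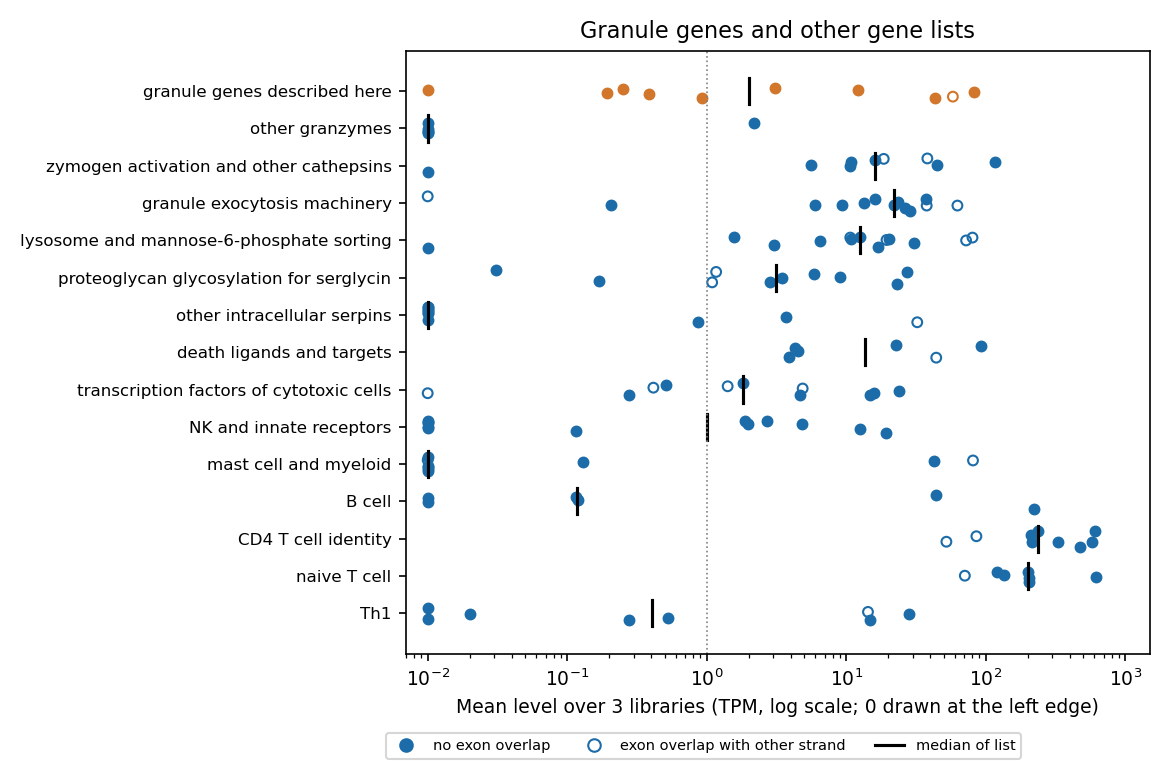
Mean level over 3 libraries (TPM, log axis, 0 drawn at the left edge) of the granule genes and of 14 other gene lists, with open circles for genes with exon overlap and bars for list medians. The granule genes spread from 0 to 82.4 TPM around a median of 2.00 TPM, below the medians of the exocytosis and cathepsin lists, among others. Their median was above those of the other granzyme, other serpin, transcription factor, natural killer, myeloid, B cell and Th1 lists. The median of all protein-coding genes was 0.603 TPM.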

How the data were processed

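The values are raw counts, which the authors obtained per gene by running featureCounts 1.4.6-p4 (paired fragments, both ends mapped, strand setting 1, exons joined by gene, GENCODE M13), per the file headers, on mm10, per the labels. Whether that strand setting matches the orientation of the libraries and which library kit and aligner version were used are not given in the sources used here. Both the gene set and the lists were chosen with earlier results of these data known.

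TPM were computed from the counts and exon lengths. Scaled counts used trimmed mean of M-values in edgeR 4.0.16 under R 4.3.3, and DESeq2 1.42.0 size factors were tried instead. Variation between libraries was tested by a Poisson chi-square test with 2 degrees of freedom over the 10662 genes kept by filterByExpr, at an adjusted p of 0.05. The step was first run on simulated Poisson counts, the model that the test assumes. Those counts lack the variation between real libraries, whose estimated coefficient beyond counting error was 0.375. Floors used 3 counts. Gene symbols came from GENCODE M21, for 50376 of 50600 identifiers, and exon overlap from bedtools 2.31.1. Named genes were all set members and, per list, the 2 highest by TPM and up to 3 with 0 counts, plus nearest opposite-strand genes. Other genes named (the mitochondrial genes, Jund, Actb, Gapdh, Klrd1, Klrk1, Crtam, Fcgr3, Klrg1, Fcer1g, Gm11175, Ctsc, Unc13d, Rab27a, Stx11, Fasl, Tbx21, Eomes, Ncr1, Gzmc and Ifng) were chosen after their values were seen. One gene that the rule would name is not reported here.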

Additional observations from a re-analysis of the deposited data

How the results depend on the processing

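The median of the 10 genes' mean levels was 2.00 TPM, and 6.08 TPM when genes with exon overlap were left out of the denominator; leaving out 1 library at a time gave 0.929 to 2.91 TPM. The count of genes at 1 TPM in every library was 4, and 5 without replicate 3 or with that denominator, Serpinb9 being added. Genes that varied between libraries numbered 6649, and 3302 to 6377 when 1 library was left out, the lowest without replicate 3. Granule genes that varied numbered 2 of 4 tested, where 6649 of 10662 genes did. With raw library totals they numbered 4 of 4, where 8801 of 10662 genes did. With no filter on low counts they numbered 4 of 9 (Gzmm and Serpinb9 added), where 8500 of 19958 genes did. Without replicate 1 or 2 they numbered 2 of 4, where 6377 of 10495 and 5163 of 10395 genes did. Without replicate 3 they numbered 1 of 5, where 3302 of 11756 genes did. Granule genes with a gene of the other strand numbered 1 of 10 by exon overlap, where 4801 of 21764 protein-coding genes had it. They numbered 3 within 1 kb and 4 within 5 kb, for which the share over all genes was not computed. In 13 of 15 pairs the first gene was higher in every library, under each alternative run. The pairs joined the 5 genes with the most counts to each other, and Prf1 to the 5 with the fewest. The direction of the latter pairs was thus set by that choice, and the tally is a description only. With scaling over genes without exon overlap, the log2 difference between replicates 3 and 2 changed sign for Ctsw, which was not called (-0.31 and 0.016), and Srgn was highest in replicate 1 (153.05 CPM, against 150.6 in replicate 2). By CPM, which is not scaled to length, Ctsw fell from the percentile 96.2 of protein-coding genes to 86.6, and Lamp1, at 90.1, ranked above it. No paired analysis was possible because the series has 1 group. Depth limits Gzma, Gzmb, Gzmk and Nkg7, which had at most 2 counts in any library.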
